A study of Mus musculus with 7 samples.

Results

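The histone deacetylase HDAC1 was mapped across the 9 genes of the mouse Hoxc cluster (Hoxc4, Hoxc5, Hoxc6, Hoxc8, Hoxc9, Hoxc10, Hoxc11, Hoxc12 and Hoxc13) on chromosome 15. An HDAC1 peak was assigned to the cluster when it overlapped the body of a Hoxc gene, as drawn in the GENCODE annotation of mm10, or the 10 kb on either side of it. This rule took 27 of the 15347 peaks in the deposited list. They were found by ChIP-seq, which sequences the DNA that an antibody brings down from fixed chromatin. The material was forelimb and hindlimb buds of wildtype Swiss Webster embryos at E11.5 with 40 to 44 somites, pooled, with 3 litters named for each sample. There were 4 HDAC1 ChIP samples and 3 input samples, and 1 peak list stood for all of them. Since fore- and hindlimb buds were pooled, no peak could be assigned to either limb, and a site bound in few cells could not be told apart from a site bound weakly in many. The list as used here held coordinates but no read number, height or fold enrichment, so the depth behind a peak was unknown here and no value had a replicate error. A fold change and a false discovery rate for each peak, which the study's supplement describes, were not used here. For the same reason no difference below was tested, and the tissue label could not be checked against marker genes. The list was not ordered by position, and the place of a peak in it (1 is first) was taken as its rank.

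HDAC1 removes acetyl groups from histone tails and works within larger assemblies such as the NuRD, Sin3 and CoREST complexes. Hox genes encode homeodomain transcription factors that pattern the body axis and the limbs, and they lie in clusters whose gene order mirrors the order of their expression along the axis. In the Hoxc cluster the 5′ end holds the posterior genes Hoxc13 to Hoxc9, several of which are known for expression in hindlimb rather than forelimb buds, and the 3′ end holds the anterior genes Hoxc4 to Hoxc6. Hox clusters are also well known targets of Polycomb repression. All 9 genes are transcribed in the same direction, and on the plus strand of mm10 the order runs from Hoxc13 to Hoxc4.

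The DNA under the peaks varied widely, and 3 stretches were chosen to show that range. Sequences are from the mm10 (GRCm38) reference, plus strand, 5′ to 3′. The first lies in the intron of Hoxc5, inside the best-ranked Hoxc peak, at chr15:103014806-103015105. Capitals mark the 2 mature arms of the microRNA Mir615, which is encoded in that intron.
Hoxc5 intron around Mir615: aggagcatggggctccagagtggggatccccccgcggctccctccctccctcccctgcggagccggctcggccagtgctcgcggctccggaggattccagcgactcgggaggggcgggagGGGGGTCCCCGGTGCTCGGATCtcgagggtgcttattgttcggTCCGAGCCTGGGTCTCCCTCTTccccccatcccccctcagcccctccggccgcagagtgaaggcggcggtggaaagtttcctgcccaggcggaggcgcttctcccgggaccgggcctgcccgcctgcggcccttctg
The mature arms are given below as RNA from RefSeq (GRCm38.p6), at chr15:103014926-103014947 and chr15:103014969-103014990, with the seed (bases 2 to 8) in capitals. Beside them stands miR-196a-5p of Mir196a-2, the other microRNA gene of the cluster, at chr15:102973365-102973386, which no HDAC1 peak covered. The 3 seeds differ from one another.
mmu-miR-615-5p: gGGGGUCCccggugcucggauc
mmu-miR-615-3p: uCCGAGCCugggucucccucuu
mmu-miR-196a-5p: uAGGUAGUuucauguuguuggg
The next 2 stretches show peaks that were rich or poor in the dinucleotide CG, which is in capitals. The central 300 bases of a Hoxc9 peak, at chr15:102977825-102978124, were intronic and held no CG. The peak upstream of the short Hoxc4 transcript, at chr15:103032750-103032899, is shown whole and held 13 CG in 150 bases.
Hoxc9 intron peak: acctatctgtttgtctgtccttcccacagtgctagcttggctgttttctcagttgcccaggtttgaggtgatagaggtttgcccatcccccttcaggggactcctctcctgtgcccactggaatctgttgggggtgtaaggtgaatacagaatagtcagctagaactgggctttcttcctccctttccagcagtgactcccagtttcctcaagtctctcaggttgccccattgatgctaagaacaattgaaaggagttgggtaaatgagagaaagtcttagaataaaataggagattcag
Hoxc4 upstream peak: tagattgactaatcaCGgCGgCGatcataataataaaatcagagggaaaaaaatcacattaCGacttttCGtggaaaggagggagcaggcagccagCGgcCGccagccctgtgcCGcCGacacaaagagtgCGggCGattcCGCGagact

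HDAC1 peaks were many across the Hoxc cluster, with a median length somewhat below that of the whole list, and they were unevenly spread. Gene bodies and flanks together formed 1 territory of 135750 bp (chr15:102911103-103046852), of which 14300 bp or 10.5% lay under a peak. The 27 peaks ran from 150 to 2300 bp with a median of 350 bp, against 450 bp over all peaks in the list. The median was 550 bp at the Hoxa genes, 275 bp at Hoxb and 400 bp at Hoxd. Of the 27 Hoxc peaks, 13 were 300 bp or shorter, a count that was not compared with the whole list. Another 4 (14.8%) were 1 kb or longer, near the 17.6% of all peaks. The 4 long peaks alone held 6150 bp, or 43.0% of the Hoxc bases under peaks. The ranks ran from 1205 to 15171 with a median of 9594, and 9 of the 27 peaks (33.3%) were among the first 7673 of the list. Longer peaks stood higher in the list (Spearman's rho between length and rank -0.75 over the 27 peaks, and -0.75 over all 15347). These peaks share one list and one caller, so the correlation is a description.

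The peaks fell into 6 groups when a space of more than 4 kb was taken as a break. The first group was the lone peak of Hoxc12. The second held 13 peaks in 16950 bp from upstream of Hoxc11 to the intron of Hoxc10, and 45.1% of that stretch was under a peak. The third held 8 peaks in 8150 bp at Hoxc9, with 46.6% covered. These 2 stretches made up 18.5% of the territory and held 21 of the 27 peaks and 80.1% of the bases under peaks. A pair of peaks followed between Hoxc8 and Hoxc6, another pair at Hoxc6 and Hoxc5, and the last group was the lone peak of Hoxc4. HDAC1 peaks were thus concentrated from just upstream of Hoxc11 to the second intron of Hoxc9, in and between the genes, and sparse on both sides of them.

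**Figure D1:**
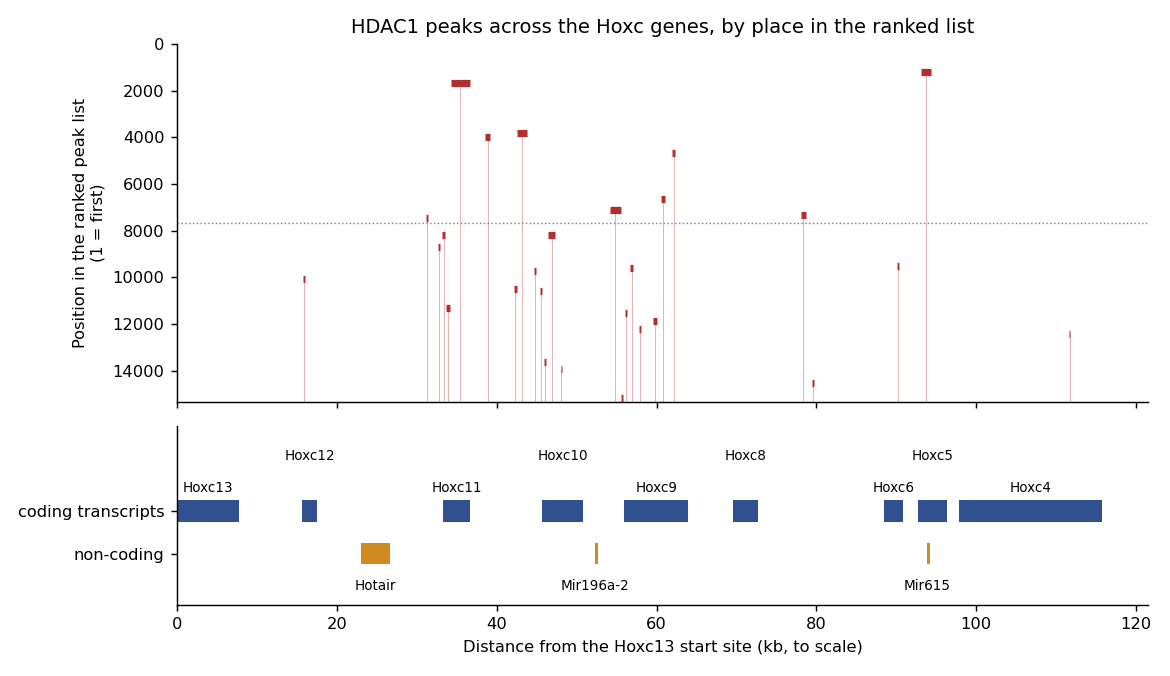
Each red bar is 1 of the 27 HDAC1 peaks, drawn to scale against the distance from the Hoxc13 start site in kb, with its position in the ranked list on the vertical axis (1 at the top, dotted line at the middle of the list). Blue boxes are the coding transcripts and orange boxes 3 non-coding genes (drawn at least 0.4 kb wide). The 21 peaks in and between Hoxc11, Hoxc10 and Hoxc9 and just upstream of Hoxc11 stand close together, while the best-ranked peak, at 1205, stands apart over Hoxc5 and Mir615.

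Of the 26 spaces between neighbouring peaks, 16 were 1 kb or less, the smallest was 50 bp and the median was 725 bp. Another 4 spaces exceeded 10 kb. The largest was 17250 bp between the peaks of Hoxc5 and Hoxc4. The next were 15700 bp across Hoxc8, 15150 bp across the region that holds the long non-coding RNA gene Hotair, and 10400 bp that ran over the Hoxc6 TSS into its exon 2. From the first to the last peak the cluster spanned 96000 bp. Outside it, the next peak lay 189550 bp before the Hoxc12 peak (chr15:102746700-102747349, 650 bp, rank 8149), on the side of Calcoco1, and 149300 bp after the Hoxc4 peak (chr15:103182200-103182649, 450 bp, rank 7017), on the side of Smug1. No peak therefore lay close to the edge of the rule, and a flank of 20 kb took the same number of peaks.

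In a gene-by-gene count, 7 of the 9 Hoxc genes had a peak in the gene body, where 45.1% of all protein-coding genes did. All 9 had a peak within 10 kb of the body, against 53.8% of protein-coding genes. Near a coding transcription start site (TSS), from 2 kb upstream to 1 kb downstream, 6 of 9 had a peak (Hoxc12, Hoxc11, Hoxc10, Hoxc9, Hoxc5 and Hoxc4), against 43.9%. The TSS base itself was inside a peak for 2 of 9 (Hoxc11 and Hoxc10), against 32.7%. Neighbouring Hoxc genes share peaks and flanks, so the 9 genes are not independent, and none of these shares was tested. Because the annotated body of Hoxc5 runs for 49987 bp through a non-coding transcript that spans Hoxc9, Hoxc8 and Hoxc6 and starts inside Hoxc10, the values that follow use the stretch from the first to the last base of the coding transcripts.

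**Figure D2:**
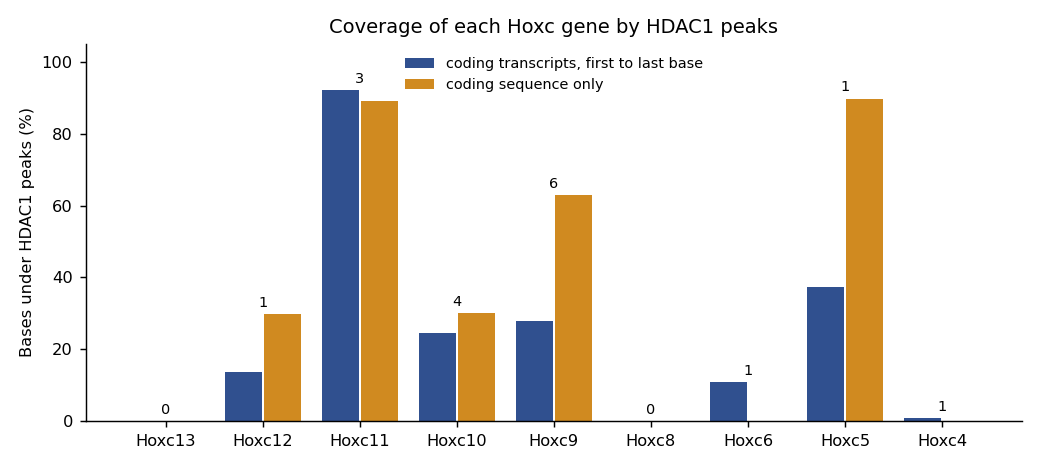
Bars give, for each Hoxc gene in 5′ to 3′ order of the cluster, the percent of bases under HDAC1 peaks between the first and last base of its coding transcripts (blue) and within coding sequence alone (orange). The number above is the count of peaks in the coding transcripts. Hoxc11 was covered over 92.1% of its length, while Hoxc13 and Hoxc8 had no peak.

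Hoxc13, known for its role in hair and nail formation, was one of the 2 genes without a peak in the body (chr15:102921103-102928814, 7712 bp). Its TSS lay 15797 bp from the nearest peak, the longest such distance in the cluster. That peak was the one in Hoxc12.

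Hoxc12, another posterior gene (chr15:102936757-102938609), had 1 peak of 250 bp at rank 10079 (chr15:102936900-102937149), entirely in coding sequence. It started 143 bp downstream of the TSS and covered 35.7% of exon 1 and none of the intron or exon 2. It covered 29.8% of the coding sequence.

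Hoxc11, a posterior gene known for its expression in the hindlimb bud, was the most completely covered member (chr15:102954427-102957708). Its 3 peaks covered 3023 of 3282 bp, or 92.1%, whereas among all protein-coding genes 0.334% were covered to this degree or more. Genes of like length were not compared, and a peak of a given size covers more of a short gene such as Hoxc11. The peak over its TSS was 350 bp at rank 8174, and a peak of 500 bp at rank 11334 followed. The third peak was the longest of the cluster at 2300 bp (chr15:102955400-102957699, rank 1674, second best of the 27). Coverage was 87.2% in exon 1, 88.1% in the intron and 99.3% in exon 2, the exon that encodes the homeodomain. Short peaks stood at 378 and 1928 bp upstream of the TSS. Of the 2, the nearer was 300 bp (rank 8700) and the farther 200 bp (rank 7455).

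Between Hoxc11 and Hoxc10 a further 4 peaks lay outside every Hoxc body. The 600-bp peak at chr15:102959650-102960249 ranked 3983 and lay 5223 bp downstream of the Hoxc11 TSS. The 1200-bp peak at chr15:102963700-102964899 ranked 3806 and lay 1897 bp upstream of the Hoxc10 TSS. Both ranked above every peak inside Hoxc10. The other two were 400 bp (rank 10498) and 250 bp (rank 9729).

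Hoxc10, which takes part in hindlimb and lumbar patterning, had 4 peaks over 24.6% of its length (chr15:102966796-102971893). The peak at its TSS was 300 bp at rank 10595, lay almost wholly upstream and reached 4 bases into exon 1. The longest was 850 bp at rank 8199 and lay mostly in the intron. Exon 1 was covered to 38.5% and exon 2 was not covered, in contrast to Hoxc11, where exon 2 was the most fully covered segment.

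Hoxc9, which sets thoracic identity in motor neurons and vertebrae, had 6 peaks in its coding transcript (chr15:102977032-102985099), and 0.362% of protein-coding genes had 6 or more. The spaces between the 6 peaks ran from 450 to 1550 bp, and their count depends on how the caller splits the region. These peaks were 250 to 500 bp long and covered 27.9% of the transcript. The best-ranked was 450 bp (rank 4655) in the second intron, and the next was the 500-bp peak over exon 2 (rank 6634), which covered 491 bp or 62.9% of the Hoxc9 coding sequence. Exon 3, which encodes the homeodomain, was not covered. A peak of 250 bp (rank 11550) began 68 bp downstream of the TSS, and 2 peaks stood upstream, 250 bp at a distance of 133 bp (rank 15171, the lowest of the 27) and 1300 bp at a distance of 433 bp (rank 7109). In the window around its TSS, 67.7% of bases lay under peaks, the highest of the 9 genes, although the TSS base itself did not.

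Hoxc8, a thoracic patterning gene and a known target of miR-196, had no peak in its body (chr15:102990607-102994111). Its TSS lay 7158 bp downstream of the last Hoxc9 peak. Beyond its end, 2 peaks of 650 bp (rank 7326) and 200 bp (rank 14528) lay in non-coding transcripts annotated to Hoxc6 and Hoxc5 and more than 8 kb from the coding TSS of either neighbour.

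Hoxc6 had 1 peak in its coding transcript (chr15:103009573-103011881), of 250 bp at rank 9511. It lay in exon 2 but in its untranslated part, so that none of the coding sequence was covered. The nearest peak edge was 1577 bp downstream of the TSS.

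Hoxc5 held the best-ranked peak of the cluster, of 1350 bp at rank 1205 (chr15:103014150-103015499). It began 335 bp downstream of the TSS and covered 37.3% of the coding transcript (chr15:103013815-103017429). Among protein-coding genes of any length, 1.70% were covered to this degree or more. The whole intron was covered, together with 53.5% of exon 1 and 12.4% of exon 2. Since exon 2 is mostly untranslated, 89.8% of the coding sequence was covered, close to the 89.0% of Hoxc11. Hoxc11 and Hoxc5 thus carried the 2 best-ranked peaks of the cluster, each lying within the gene rather than over its TSS.

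Hoxc4, at the 3′ end (chr15:103018934-103036852), had 1 peak of 150 bp at rank 12447, which covered 0.837% of its length. It lay in the first intron of the long transcript and 1496 bp upstream of the TSS of the short transcript. The TSS of the long transcript was 3435 bp from the nearest peak, that of Hoxc5. No exon of Hoxc4 was covered.

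Of 7 annotated non-coding genes in the territory, 1 lay under a peak. The share of all non-coding genes under a peak is not given here, so no excess or lack can be read from this count. Mir615, a microRNA gene in the Hoxc5 intron (chr15:103014910-103015001), was covered over its whole 92 bp by the peak of rank 1205. Mir196a-2 (chr15:102973350-102973434), between Hoxc10 and Hoxc9, lay in a space of 6050 bp, 4100 bp from the peak before it and 1865 bp from the peak after it. Hotair, a long non-coding RNA gene between Hoxc12 and Hoxc11 on the opposite strand (chr15:102944062-102947730), lay 6912 bp and 4569 bp from its neighbouring peaks. The others were small RNA genes of the misc_RNA class, with Gm27337 and Gm27443 inside the Hotair body and Gm28011 and Gm27535 close to it. They and Hotair all lay in the same space of 15150 bp between peaks, so they do not count as separate cases.

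By class of sequence, peaks covered 33.0% of the coding bases of the cluster and 12.6% of the untranslated exon bases. They covered 13.5% of the introns of coding transcripts, 8.47% of the remaining non-coding transcript bodies and 6.21% of the bases between genes. Coding sequence was thus covered most, with 2460 of 7445 bases. Those covered bases came from 8 peaks in 5 genes (Hoxc12, Hoxc11, Hoxc10, Hoxc9 and Hoxc5). Hoxc11 held 812 of them and Hoxc5 held 598. The same shares by class are not given here for other genes, so this order is not shown to be particular to Hoxc.

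The Hoxc peaks were poorer in GC and CpG than the list as a whole. Their median GC content was 55.1% (range 43.3 to 70.2%), against 62.9% for all peaks, and 6 of 27 were above that median. The median observed to expected CpG ratio was 0.491 (range 0 to 1.26), against 0.758, and again 6 of 27 were above it. A peak was called CpG island-like at 50% GC, a ratio of 0.6 and 200 bp or more, which held for 8 of 27 Hoxc peaks (29.6%) and 66.2% of all peaks. The island-like share was 33.3% at Hoxa, 35.5% at Hoxd and 58.3% at Hoxb. Median GC was 51.4%, 52.1% and 57.45% in the same order. Low GC and few island-like peaks were thus not particular to Hoxc. Of the 8 Hoxc peaks that touched coding sequence 5 were island-like, and of the 19 others 3 were. The sequences printed above show both ends of the range, with 13 CG in 150 bases upstream of Hoxc4 and none in 300 bases of the Hoxc9 intron. Within the cluster, the DNA under peaks was still richer than the rest of the territory (GC 56.2% against 47.5%, CpG ratio 0.566 against 0.303). CpG ratio and rank showed little relation across the 27 peaks (Spearman's rho 0.03, as a description).

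**Figure D3:**
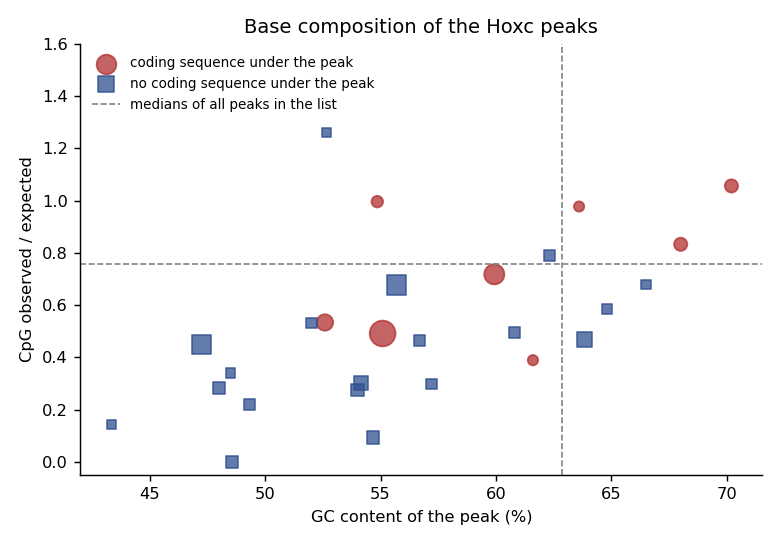
Each point is 1 of the 27 Hoxc peaks, placed by GC content in percent and by the observed to expected CpG ratio, with its area growing with peak length. Red circles touch coding sequence, blue squares do not, and dashed lines give the medians of all 15347 peaks (62.9% and 0.758). Most Hoxc peaks lie below and to the left of both medians.

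In a search of 5 motifs on both strands, GGGCGG, the GC box bound by SP factors, was in 12 of 27 Hoxc peaks (44.4%), against 61.4% of all peaks and 35.7% of RefSeq promoters of 300 bp. CCAAT was in 13 of 27 (48.1%), against 37.6% of all peaks and 37.4% of promoters. TATAAA was in 4 of 27 (14.8%), against 10.5% and 13.6%. Such shares depend on sequence length, which differed between these sets. Per kb, GGGCGG had 1.33 matches in the Hoxc peaks and 3.45 in all peaks. CCAAT had 1.12 and 0.932, and TATAAA had 0.420 (from 6 matches) and 0.214. TGGGTGGTC, a GLI core sequence, was in none of the 27 and in 0.645% of all peaks. TGATTNAT, a joint site of HOX and PBX proteins, was in none and in 3.06% of all peaks. With 27 peaks, the counts of 0 are close to those shares and no difference can be read from them. No motif of the 5 contains another, and a match is a description of the sequence, not a bound site. Of the Hoxc genes, the RefSeq promoter table used here held 1, Hoxc4, whose promoter no peak touched.

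The 4 Hox clusters differed in the form of their HDAC1 peaks. The same rule gave 24 peaks at the Hoxa genes, 12 at the Hoxb genes and 31 at the Hoxd genes. Peak density was 19.9 per 100 kb at Hoxc, 19.2 at Hoxa, 8.58 at Hoxb and 26.5 at Hoxd. Covered territory was 10.5% at Hoxc, 46.9% at Hoxa, 2.89% at Hoxb and 32.0% at Hoxd, so that Hoxc and Hoxa had like peak densities and unlike coverage. The longest peak was 2300 bp at Hoxc, 35050 bp at Hoxa, 700 bp at Hoxb and 9050 bp at Hoxd. The best rank was 1205 at Hoxc, 5 at Hoxa, 7304 at Hoxb and 14 at Hoxd. In CpG ratio the medians of Hoxa (0.484) and Hoxd (0.526) lay near that of Hoxc, and Hoxb stood at 0.728. In fixed genome windows of 100 kb, the fullest Hoxc window held 23 peaks and was the only 1 of 27247 (0.00367%) with that many. By bases under peaks, 12350 in that window, 12 windows (0.044%) had as many or more. The first place held on this fixed grid alone, since over the whole territories Hoxd had more peaks and a higher density than Hoxc, and any such count depends on how the caller splits a region.

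Gene by gene, each of the 9 Hoxc genes was covered over a smaller share of its coding transcripts than every Hoxa and Hoxd gene of the same paralogue group. These comparisons are not independent, since 1 Hoxa peak (rank 5) covered all of Hoxa9, Hoxa10 and Hoxa11. Groups 5, 6, 8 and 12 had only 1 such paralogue each. The genes also differ in length, with coding transcripts spanning 17919 bp at Hoxc4 and 2083 bp at Hoxa4. With the first 7673 peaks of the list alone, 8 of the 9 Hoxc genes were still covered less. The exception was Hoxc4, since the best ranks of Hoxc4 (12447) and Hoxd4 (15031) left both without a peak. The gap was smallest in group 11, with Hoxc11 at 92.1% and Hoxa11 and Hoxd11 at 100%. Group 4 came close, with Hoxc4 at 0.837%, Hoxd4 at 9.05% and Hoxa4 at 50.6%. In group 10, Hoxc10 stood at 24.6%, Hoxa10 at 100% and Hoxd10 at 93.7%. In group 13, Hoxc13 had no peak, Hoxa13 was covered to 92.2% and Hoxd13 to 80.2%. Against Hoxb the order was mixed. Of 6 Hoxc genes with a Hoxb paralogue, 3 were covered more (Hoxc9, Hoxc6 and Hoxc5), 2 less (Hoxc8 and Hoxc4) and 1 equally, since Hoxc13 and Hoxb13 both had no peak.

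**Figure D4:**
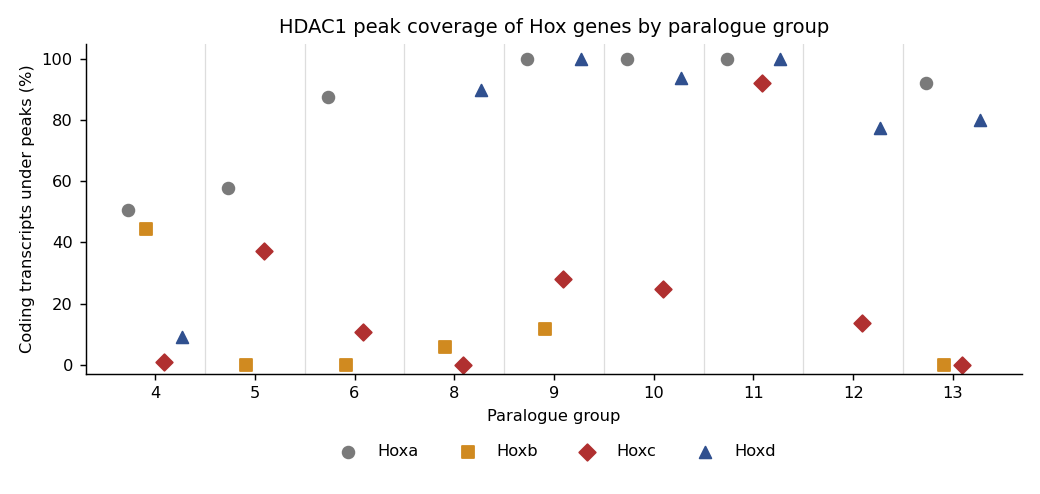
Points give the percent of coding transcripts under HDAC1 peaks for each Hox gene of the paralogue groups found in Hoxc, with 1 symbol per cluster. The Hoxc genes (red diamonds) lie below the Hoxa and Hoxd genes in every group shown, most narrowly in group 11.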

How the data were processed

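HDAC1 ChIP-seq was performed on 4 ChIP and 3 input samples. Per the submitters' processing notes, Bowtie2 2.2.5 and mm10 were used. Per the paper's methods, the authors called peaks with CisGenome. The deposited list holds chromosome, start and end only, so no counts, signal or per-peak fold change were used here, and no test or replicate error could be computed from it. Grouping followed the sample labels.

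Coordinates were taken to count from 1 and to include the end base, and an overlap was at least 1 bp. Genes came from GENCODE M21 basic (GRCm38), and sequences from GRCm38 and RefSeq tables. The non-coding genes of the territory, and an alternative with the start sites of all transcripts, came from the full M21 annotation. All annotated genes in the territory, the nearest coding genes and the other Hox clusters were named, and 1 further gene list is not reported here. The members and lists were chosen with earlier results of these data known. Overlap counts matched a base-by-base count in 1000 of 1000 simulated regions. Alternatives covered rank, flank, merging, length, gene model and coordinate base. Python 3.11.15, numpy 2.4.6, scipy 1.17.1, pysam 0.24.0 and matplotlib 3.10.9 were used.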

Additional observations from a re-analysis of the deposited data

How the results depend on the processing

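The direction of the difference in coverage between Hoxc and each other Hox cluster held under all 8 alternatives. With the first 7673 peaks of the list alone, 9 peaks remained, with a median length of 650 bp and 6.30% of the territory covered, the median coverage of the 9 gene bodies went from 13.5% to 0%, and the difference from Hoxb was 5.98 percentage points, from 7.64. With peaks no more than 1000 bp apart merged, there were 11 peaks with a median length of 1350 bp, 15.4% coverage and a difference from Hoxb of 11.3. Of the merged peaks, 72.7% had a rank among the first 7673. A merged peak took the best rank of its parts, so this share is not comparable with the 33.3% of the unmerged list. Without a flank, coverage was 13.4% and the differences were -41.6 from Hoxa and -24.7 from Hoxd, from -36.4 and -21.4. With a flank of 20 kb, coverage was 9.18% and the difference from Hoxa -31.3. With the TSS base itself required in a peak, 2 genes qualified in place of 6. Among single gene bodies, the span of the coding sequence put Hoxc5 at 95.0% and Hoxc6 at 0%. An alternative chosen after the data were seen recounted the Hoxc genes covered less than their Hoxa and Hoxd paralogues, which gave 8 or 9 genes. Of 82 alternative values for the main results, 66 stayed close to the reported value. This tally includes alternatives that could hardly move a value. The change of coordinate base shifts each start by 1 bp, and requiring 50% of a peak inside left the main values it was applied to unchanged. Counts, lengths, gaps and the median gene body coverage had to lie within 1.5 times. Other percentages had to lie within a 95% binomial interval over 50-bp steps or, for ranks, over peaks. Differences between clusters had to lie within a 95% normal interval over 50-bp steps. Neighbouring steps share peaks, so these intervals set a tolerance and measure no replicate spread. No paired analysis was possible because the single peak list carries no value for a sample, and for the same reason no replicate could be left out. Weaker sites can fall below the authors' peak threshold, so a gene without a peak is not shown to lack HDAC1.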
